A study of Homo sapiens with 4 samples.

Results

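The insulin-like growth factor (IGF) receptors, the ligand IGF1 and the IGF binding proteins were followed in A549 cells, a human lung adenocarcinoma line, in which let-7a-3, a microRNA gene of the let-7 family, was overexpressed. The members were taken by symbol: IGF1, IGF1R, IGF2R and IGFBP1 to IGFBP7, 10 genes in all, as far as a probe of the array carried exactly 1 gene symbol in the platform annotation. Of these, 8 genes were measured, by 16 of the 26629 probes, among 12483 genes in all. IGFBP3 and IGFBP7 had no such probe and were not analysed here. RNA was compared on 4 two-colour cDNA arrays, numbered replicates 1 to 4, each pairing an A549 culture with let-7a-3 overexpression and a parental A549 culture as control, both grown without further treatment. Arrays 1 and 3 had 1 dye orientation (A) and arrays 2 and 4, with the dyes swapped, the other (B).

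Each value is a log ratio between the channels of an array. Neither the base of the logarithm nor the culture in the numerator is given in the sources used here, so no fold is stated, and a positive value could stand for more RNA in either culture. The labels also leave unsaid whether the arrays were turned to 1 direction before deposit. Every probe was therefore described by a shared component, the mean over all 4 arrays, and an alternating component, the part that changes sign with the dye orientation, written with the sign of arrays 1 and 3. If the arrays had been turned, the shared component would be the difference between cultures and the alternating one the dye effect. If they had not, the roles would be exchanged. The controls were parental cells, so transfection itself is not separated from let-7a-3, and the labels do not say whether the transfected cells were 1 line or several. The array medians lay between -0.0022 and 0.017 and the standard deviations between 0.173 and 0.193. Arrays of 1 orientation correlated across probes with Pearson r of 0.43 and 0.56, and arrays of opposite orientation with r between -0.16 and 0.055. The number of arrays limits the precision, and the table holds no intensities, so neither the level of a gene nor the markers of the cell line could be checked.

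IGF1 and IGF2 are secreted ligands. IGF1R is the receptor tyrosine kinase through which they signal to growth and survival by way of IRS adapters, PI3-kinase and AKT. IGF2R, the cation-independent mannose 6-phosphate receptor, binds IGF2 without such signalling, clears it and carries lysosomal enzymes. The binding proteins hold most IGF outside cells and can block or prolong its action, and proteases release the ligand from them. Let-7 microRNAs bind messenger RNAs through their seed, and IGF1R is among the genes described as let-7 targets.

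The agent of the experiment is shown first because its seed is what defines its possible targets. The let-7a-3 gene lies at chr22:46112749-46112822 on the plus strand (GRCh38.p14, sequences from RefSeq). In the mature RNAs the capitals mark the seed, bases 2 to 8, and in the 74-base hairpin they mark both mature arms.
hsa-let-7a-5p: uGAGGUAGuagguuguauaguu
hsa-let-7a-3p: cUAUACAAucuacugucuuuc
let-7a-3 hairpin: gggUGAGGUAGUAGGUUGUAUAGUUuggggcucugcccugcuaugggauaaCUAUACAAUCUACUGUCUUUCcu

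In the shared component none of the 16 probes was called by limma (adjusted p under 0.05), where 2.07% of all probes were, and the adjusted p lay between 0.154 and 0.987. At an unadjusted p under 0.05 there were 4 of 16, against 12.5% of all probes. All 4 were binding protein probes with negative values, which 6.42% of all probes had at that level. In the alternating component 1 of 16 passed, an IGF1R probe, where 4.28% of all probes passed, and 7 of 16 had an unadjusted p under 0.05, against 25.2%. The members' log ratios were small, between -0.38 and 0.30 on any array. The 95% intervals of the shared component lay within -0.32 to 0.20 for all 16 probes and those of the alternating component within -0.33 to 0.32. In RNA of whole cultures, a different number of cells with a transcript and a different amount of it per cell cannot be told apart.

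**Figure D1:**
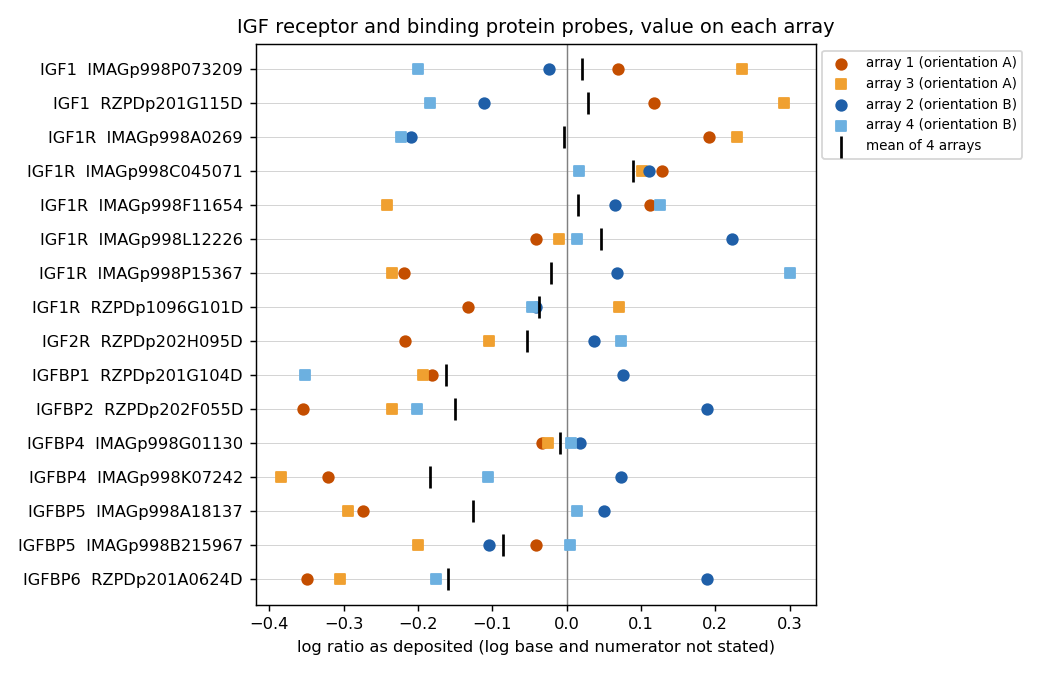
Log ratio as deposited (x axis) of each of the 16 member probes (rows) on the 4 arrays, with orange marks for arrays 1 and 3, blue marks for arrays 2 and 4 and a black bar for the mean. All 7 binding protein probes lie below 0 on arrays 1 and 3, whereas 6 of the 7 lie above 0 on array 2.

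All 7 binding protein probes had a negative shared component, as had 12135 of the 26629 probes in all. All 7 were also negative in the alternating component, as were 14187 of all probes. IGFBP6, a binding protein that prefers IGF2, was at -0.35 on array 1, 0.19 on array 2, -0.30 on array 3 and -0.18 on array 4. Its shared component was -0.16 ± 0.24 (SD over arrays, n = 4; adjusted p = 0.342) and its alternating component -0.17 (adjusted p = 0.151). Array 2 alone was above 0, and the values of the orientations did not overlap. IGFBP2, a binding protein found in many tumours, was at -0.35, 0.19, -0.23 and -0.20 on arrays 1 to 4, again with array 2 alone above 0. The mean was -0.15 ± 0.24 (adjusted p = 0.411). IGFBP1, which liver makes under control of insulin, was at -0.18, 0.076, -0.19 and -0.35, with a mean of -0.16 ± 0.18 (adjusted p = 0.380). Here array 4 was the lowest, so the orientations overlapped, and the alternating component was close to 0 (-0.024).

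IGFBP4, an inhibitor of IGF action that the protease PAPPA cleaves, had a pair of clones. Clone IMAGp998K07242 was at -0.32, 0.073, -0.38 and -0.11 on arrays 1 to 4. Its shared component was -0.18 with an SE of 0.053, the largest in size among the members (95% interval -0.30 to -0.064; unadjusted p = 0.00688, adjusted p = 0.154). The other clone, IMAGp998G01130, lay between -0.033 and 0.018 on the 4 arrays (shared component -0.0083, adjusted p = 0.965). The clones thus differed by 0.18 in the shared component, where the median difference over the 3108 genes with 2 probes was 0.071. Averaged, IGFBP4 stood at -0.096 (adjusted p = 0.331).

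IGFBP5, a binding protein that also attaches to extracellular matrix, was measured by clone IMAGp998A18137 at -0.27, 0.050, -0.29 and 0.014 and by clone IMAGp998B215967 at -0.041, -0.10, -0.20 and 0.0045. Both were negative on arrays 1 and 3, and on arrays 2 and 4 they lay between -0.10 and 0.050. Their shared components were -0.13 (adjusted p = 0.317) and -0.085 (adjusted p = 0.575). They differed by 0.041 in the shared component, below the median of 0.071 for pairs of clones, and by 0.12 in the alternating component, above the median of 0.10.

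Counted together, all 7 binding protein probes were below 0 on both arrays 1 and 3, as were 29.9% of all probes. This pattern was counted after the values had been seen. The median of the 7 was -0.27 on array 1 and -0.23 on array 3, against -0.11 on array 4 and 0.073 on array 2, so array 2 was the single array with a median above 0. The probes come from different clone sets, and the share below 0 on arrays 1 and 3 was 29.3% to 33.3% in each set. On array 3 they lay between the 1.3 and the 44.3 percentile of all probes. With the probes of a gene averaged, none of the 8 members passed in the shared component in limma, where 3.04% of all genes did. At an unadjusted p under 0.05 there were 5 of 8, the 5 binding proteins, against 14.6% of all genes. All 5 were negative, which 6.99% of all genes were at that level. Without array 4 this count was 0, and without array 1, 2 or 3 it was 3 each time. It was also 0 without the dye term, 1 without moderated variances and 2 with array weights. All 7 probes had a negative shared component with any 1 array left out, and also after scaling or quantile normalization. Median centring lowered the shared component of every probe, for IGFBP4 clone IMAGp998G01130 from -0.0083 to -0.016. It could therefore not turn a negative value positive.

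Among the 8 genes the order of the shared component, from the lowest, was IGFBP1 (-0.16 with an SE of 0.067), IGFBP6 (-0.16, SE 0.060), IGFBP2 (-0.15, SE 0.064), IGFBP5 (-0.11, SE 0.041), IGFBP4 (-0.096, SE 0.041), IGF2R (-0.053, SE 0.042), IGF1R (0.015, SE 0.039) and IGF1 (0.025, SE 0.047). No neighbours in this order were further apart than the sum of their standard errors. The median over all genes was 0.0069. The order and sizes depended on single arrays. Without array 4 IGFBP1 stood at -0.055, IGFBP2 at -0.052 and IGFBP6 at -0.069, above IGFBP5 (-0.11), and IGF2R (-0.062) lay below IGFBP1. Without array 2 IGFBP1, IGFBP2 and IGFBP6 stood at -0.27, -0.25 and -0.25.

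**Figure D2:**
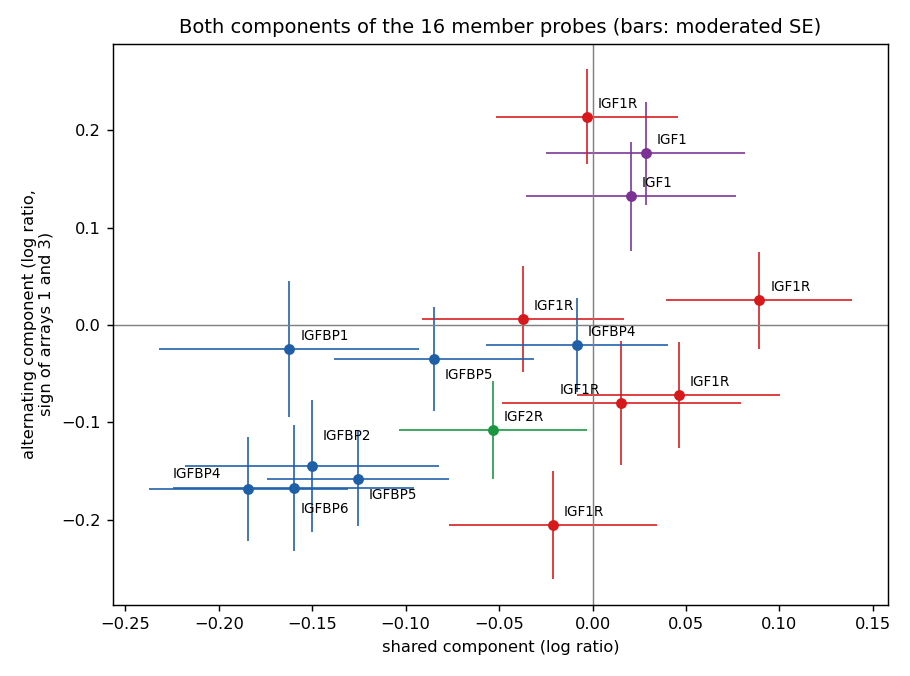
Shared component (x axis) against alternating component (y axis, sign of arrays 1 and 3) of the 16 member probes, in log ratio units, with moderated standard errors as bars. The binding proteins (blue) lie below 0 on both axes, both IGF1 probes (purple) at 0.13 and 0.18 on the y axis, and the IGF1R probes (red) from -0.21 to 0.21 on it.

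The receptor IGF1R had 6 probes, which did not move together. Clone IMAGp998A0269 was at 0.19 and 0.23 on arrays 1 and 3 and at -0.21 and -0.22 on arrays 2 and 4. It followed the dye orientation, with a shared component of -0.0030 and an alternating one of 0.21 (SE 0.049; 95% interval 0.10 to 0.32; adjusted p = 0.0451 in limma). The call was lost without array 2 (adjusted p = 0.229), without array 3 (0.0678) or without array 4 (0.241). It was also lost without the dye term, that is with 1 coefficient (0.0868), and without moderated variances (0.264).

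Clone IMAGp998P15367 of the same gene went the opposite way, at -0.22 and -0.23 on arrays 1 and 3 and 0.067 and 0.30 on arrays 2 and 4. Its alternating component was -0.21 (SE 0.056; adjusted p = 0.0682). So on array 4 these IGF1R clones lay at the 8.2 and the 96.9 percentile of all probes. Their 95% intervals, 0.10 to 0.32 and -0.33 to -0.080, did not overlap, and the difference between the clones was not itself tested.

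Clone IMAGp998C045071 was the single member probe with 1 sign on all 4 arrays, at 0.13, 0.11, 0.10 and 0.016 (shared component 0.089, adjusted p = 0.526). Clone IMAGp998L12226 was at -0.041, 0.22, -0.011 and 0.014, with array 2 apart from the rest. Clone IMAGp998F11654 was positive at 0.11, 0.066 and 0.13 on arrays 1, 2 and 4 and negative on array 3 (-0.24). Clone RZPDp1096G101D was at -0.13, -0.041, 0.070 and -0.046.

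Averaged over its 6 probes, IGF1R was near 0 in both components, at 0.015 (95% interval -0.075 to 0.11; adjusted p = 0.901) and -0.019 (interval -0.11 to 0.072; adjusted p = 0.801). The mean changed little between arrays because its clones cancelled, from -0.014 to 0.036. Across the probes the alternating component spanned 0.42, against a median span of 0.30 in the 88 genes with 6 probes, of which 12 spanned as much or more (IGF1R counted). The shared component spanned 0.13, and the median there was 0.19. The annotation names no exon or untranslated region for a clone, so the probes could not be tied to parts of the IGF1R transcript.

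**Figure D3:**
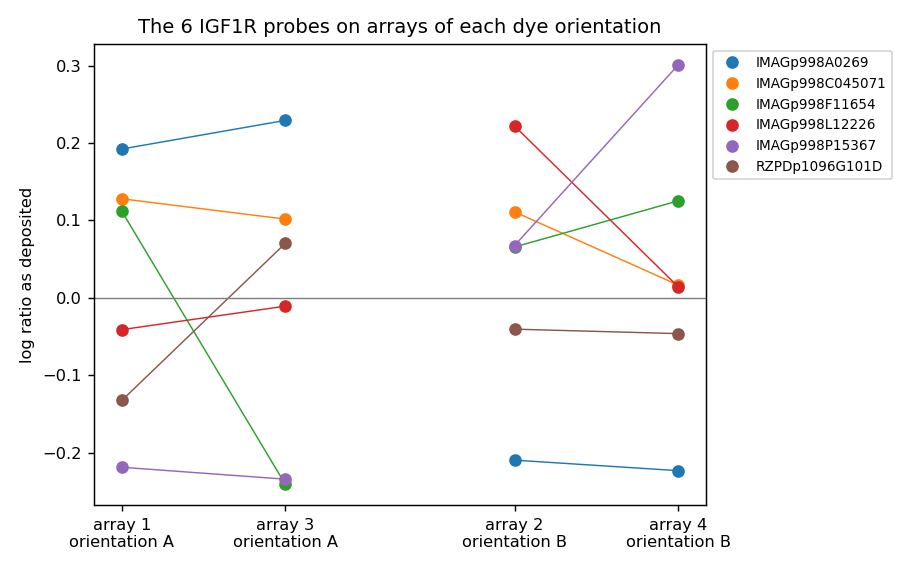
Log ratio as deposited (y axis) of the 6 IGF1R probes (colours) on arrays 1 and 3 (orientation A) and 2 and 4 (orientation B). Clones IMAGp998A0269 and IMAGp998P15367 exchange places between the orientations, from 0.19 and -0.22 on array 1 to -0.22 and 0.30 on array 4.

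IGF2R, the clearance receptor, was at -0.22, 0.036, -0.10 and 0.073 on arrays 1 to 4, negative in orientation A and positive in orientation B. Its shared component was -0.053 (95% interval -0.17 to 0.060; adjusted p = 0.723) and its alternating one -0.11 (adjusted p = 0.216). The ligand IGF1 was measured by a pair of clones with alike values. Clone RZPDp201G115D was at 0.12, -0.11, 0.29 and -0.18, and clone IMAGp998P073209 at 0.070, -0.024, 0.24 and -0.20. Both were positive in orientation A and negative in orientation B, with alternating components of 0.18 (adjusted p = 0.0876) and 0.13 (adjusted p = 0.182) and shared ones of 0.029 and 0.021. Without array 1 the first clone passed (0.22, adjusted p = 0.0495), and so did the gene mean (0.20, adjusted p = 0.00879).

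In 11 of the 16 member probes the orientations did not overlap, and 57% of all probes showed this. At the level of genes none of the 8 members passed in the alternating component in limma, where 3.29% of all genes did. At an unadjusted p under 0.05 were IGF1, IGF2R, IGFBP5 and IGFBP6, 4 of 8, against 25.6% of all genes. IGF1 was positive there and the other 3 were negative.

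Patterns were compared by the Euclidean distance between gene values over the 4 arrays, a description only. For IGFBP1, the member with the largest mean in size, the nearest genes were ZDHHC5 (distance 0.083), YPEL4 (0.11) and ZNF860 (0.16). For IGF1R they were NDEL1 (0.013), TIFA (0.014) and BRD8 (0.014). Close to 0 on all arrays, IGF1R has many such neighbours. Among the 28 pairs of members IGFBP2 and IGFBP6 were the closest (0.075), and IGFBP6 was the nearest to IGFBP2 of the other 12482 genes. That pair, which had the same value on array 2 (0.1894), was singled out after its values were seen. IGFBP2 and IGFBP5, neighbours on chromosome 2 in the RefSeq gene table, were at a distance of 0.36.

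The DNA just upstream of the members' starts is shown because the binding proteins all had a negative, though uncalled, shared component. Windows of 250 bases before each start were read from the RefSeq promoter table (GRCh38.p14). It held 11 starts of 8 member genes, with IGFBP3 among them but without IGFBP1 and IGFBP7. Both strands were searched for TATAAA, the core of a TATA box, GGGCGG, a GC box, and CACGTG, an E-box that reads the same on both strands. For IGFBP4, IGFBP5 and IGFBP6 the last 150 bases before the start are printed, for IGF2R all 250. Capitals mark the motifs found.
IGFBP4 (chr17:40443300-40443449, plus strand): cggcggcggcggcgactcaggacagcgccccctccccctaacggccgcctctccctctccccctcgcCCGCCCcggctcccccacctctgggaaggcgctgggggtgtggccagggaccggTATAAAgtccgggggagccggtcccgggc
IGFBP5 (chr2:216695550-216695699, minus strand): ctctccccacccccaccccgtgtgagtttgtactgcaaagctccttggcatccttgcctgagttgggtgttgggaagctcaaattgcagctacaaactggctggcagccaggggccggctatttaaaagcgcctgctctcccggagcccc
IGFBP6 (chr12:53097517-53097666, plus strand): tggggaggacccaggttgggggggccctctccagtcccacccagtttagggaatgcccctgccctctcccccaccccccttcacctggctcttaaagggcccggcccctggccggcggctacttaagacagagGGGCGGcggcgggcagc
IGF2R (chr6:159968832-159969081, plus strand): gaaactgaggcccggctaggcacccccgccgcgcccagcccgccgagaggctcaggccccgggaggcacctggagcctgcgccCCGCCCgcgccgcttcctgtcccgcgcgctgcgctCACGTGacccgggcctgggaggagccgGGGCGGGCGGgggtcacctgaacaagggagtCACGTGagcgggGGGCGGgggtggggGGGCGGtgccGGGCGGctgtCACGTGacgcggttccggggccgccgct

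TATAAA was found in 1 of the 11 windows, that of IGFBP4, and in 10.7% of all 35116 windows of this length. GGGCGG was found in 7 of 11, against 42.6%, and was not in the IGFBP5 window. CACGTG was found in the IGF2R window, which held 3 copies, against 6.34% of windows with at least 1 and 0.0797% with 3 or more. The IGFBP4, IGFBP5 and IGFBP6 windows, whose genes had a negative, uncalled shared component, held no motif of the 3 in common. The windows of IGFBP2, also negative and uncalled, are not printed, and some but not all of those held GGGCGG. G and C made up 71.6%, 61.2% and 61.2% of the IGFBP4, IGFBP5 and IGFBP6 windows and 79.2% of the IGF2R window, against a median of 58.0% over all windows. Such matches describe the sequence and do not mark sites in use.

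Other genes of the pathway came from lists of 54 genes, of which 41 were measured. In the shared component 1 passed with a positive and 1 with a negative value in limma, 2 of 41, where 3.04% of all genes passed. At an unadjusted p under 0.05 there were 6 of 41, against 14.6%. In the alternating component 0 of 41 passed, against 3.29% of all genes, and 6 of 41 had an unadjusted p under 0.05, against 25.6%. The list median of the shared component was 0.00040, against 0.0069 over all genes.

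Of the ligands and carriers IGF2, INS and IGFALS none was measured under its symbol. The insulin receptor INSR, the closest relative of IGF1R, was at -0.027 over 5 probes (adjusted p = 0.832). Among 20 measured adapters and kinases GRB14 passed, where 3.04% of all genes did, and 3 had an unadjusted p under 0.05, against 14.6%. GRB14, an adapter that binds the insulin receptor and dampens its signal, was at 0.49, 0.32, 0.18 and 0.25 on arrays 1 to 4. All arrays were positive, with a shared component of 0.31 (SE 0.056; adjusted p = 0.0259). The adapter SHC1 came next at -0.19 (adjusted p = 0.0783) and was negative on all arrays. IRS1, a main docking protein of IGF1R, was at 0.048 (adjusted p = 0.650).

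Among 6 proteases of binding proteins and their inhibitors 1 passed, HTRA1, a secreted serine protease, while the rate for the whole gene table was 3.04%. HTRA1 was also the single gene of this list with a p below 0.05 before adjustment, a level that 14.6% of the gene table reached. It was at -0.21, -0.24, -0.21 and -0.29, with a shared component of -0.24 ± 0.038 (SD, n = 4; adjusted p = 0.0190). Both calls rest on 1 probe each and were lost when array 2 was left out (GRB14 adjusted p = 0.110, HTRA1 0.103) or array 4 (0.0674 and 0.154). They were also lost with no dye term in the fit (0.0681 and 0.0732) or with unmoderated variances (0.488 and 0.291). Without array 1 or array 3 the lists held more calls, and the share of all genes called in those fits is not given here. PAPPA, which cleaves IGFBP4, lay between -0.045 and 0.054 on the 4 arrays.

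None of 7 relatives of the binding proteins was called by limma, and 1 had an unadjusted p under 0.05, as did 14.6% of all genes. CCN2, a matrix-associated growth factor regulator, was at -0.47, -0.14, -0.21 and -0.12, negative on all arrays (shared component -0.24, adjusted p = 0.0553). None of 3 IGF2 messenger-binding proteins was called, and 1 had an unadjusted p under 0.05, beside the same 14.6%. IGF2BP1, a known let-7 target, had -0.27, -0.0070, -0.15 and 0.024 (shared component -0.099, adjusted p = 0.330). None of 4 measured genes of the mannose 6-phosphate system, which serves IGF2R, was called, 0 had an unadjusted p under 0.05, and NAGPA had the smallest p (0.099, adjusted p = 0.360).

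**Figure D4:**
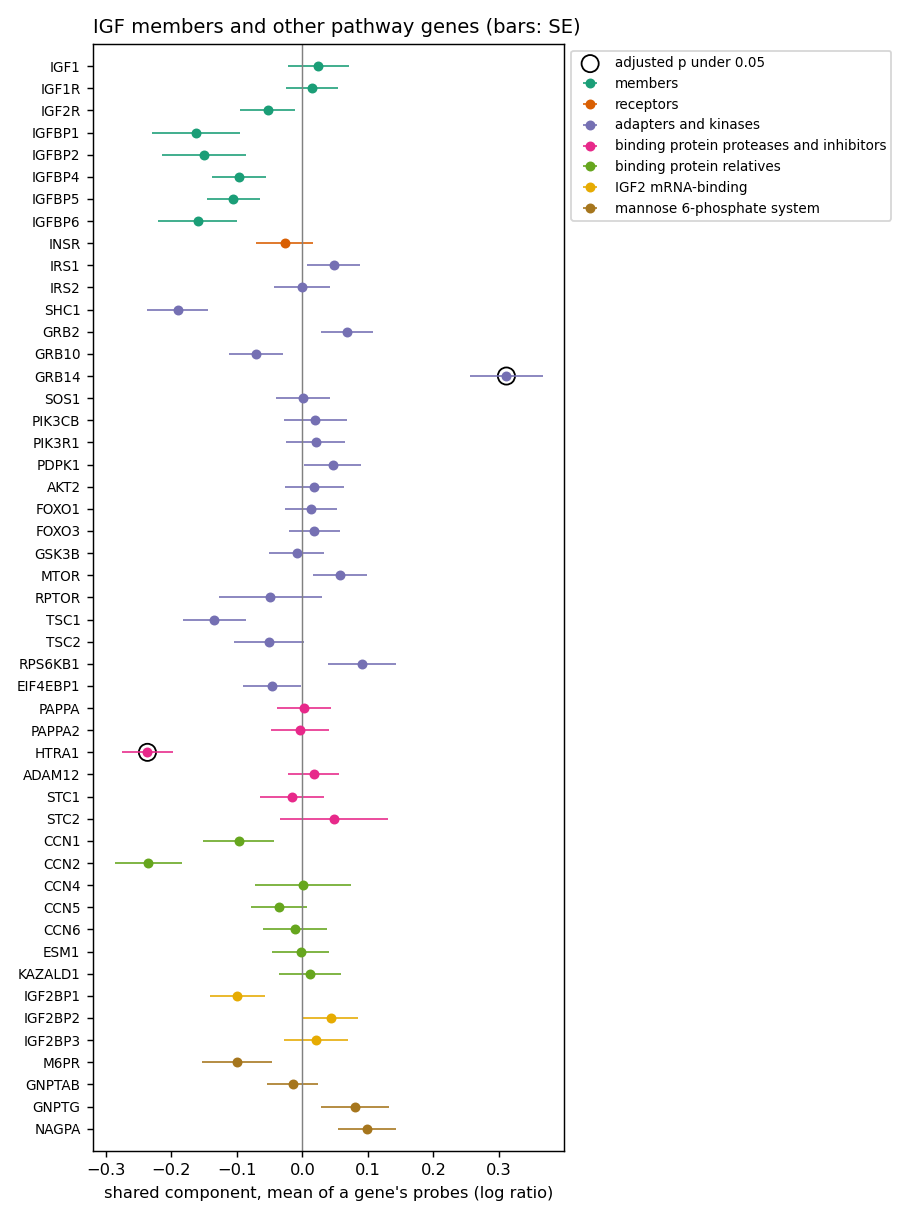
Shared component (x axis, log ratio, mean of a gene's probes) of the 8 members and 41 other genes of the pathway (rows, colours by list), with moderated standard errors as bars and circles around genes with an adjusted p under 0.05. GRB14 at 0.31 and HTRA1 at -0.24 are the circled genes, and the 5 binding proteins lie between -0.16 and -0.096.

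Of a list of 9 lung epithelial markers 7 were measured, 4 with a positive and 3 with a negative shared component. Whether A549 cells express each of them could not be checked. In limma 1 passed, keratin 8 (KRT8) at 0.39 (adjusted p = 0.00698), where 3.04% of all genes did. Of 7 fibroblast markers 5 were measured and 0 were called by limma. COL1A2 (0.10) was the 1 with an unadjusted p under 0.05, beside 14.6% of all genes. The list medians were 0.017 and 0.042. These are differences between channels, and their part in the binding protein values was not tested.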

How the data were processed

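The deposited table holds 1 log ratio for each of 26629 probes on each of 4 arrays. The authors made it from scanner files with ArrayMagic and its VSN step, a variance-stabilizing normalization that compresses the ratios of dim spots, per the series design text. Log base, numerator, spot filters and versions are not stated in those sources. No normalization was added. Of the probes, 20976 had 1 symbol in the platform annotation, 848 several and 4805 none, and the gene IDs of all 16 member probes were in the GRCh38.p14 table, with 0 symbols changed.

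Probes, and genes as the mean of their probes, were fitted with limma 3.58.1 in R 4.3.3 by a shared and an alternating coefficient. This leaves 2 residual degrees of freedom, and moderation added 7.22 for probes and 5.89 for genes. P-values are two-sided and adjusted after Benjamini and Hochberg over the whole table, with calls under 0.05. SDs are over 4 arrays and hold the alternating part. Members and lists were chosen with earlier results of these data known. Named are all member probes, per list the genes that passed or else the 1 with the smallest p, the 3 genes nearest to IGFBP1 and to IGF1R, and SHC1, IRS1, PAPPA and COL1A2, chosen after their values were seen. The fit was tested on simulated data. The labels call the arrays replicates with separately numbered RNA sources, and p-values measure only the spread between these arrays. Also run were fits with no dye term, centring on medians, scaling by the median absolute deviation, quantile normalization, robust (statmod 1.5.0) or no moderation, array weights, a threshold of 0.1, adjustment over probes with 1 symbol, the probe with the smallest p per gene, and each array left out. Figures: matplotlib 3.10.9.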

Additional observations from a re-analysis of the deposited data

Results flagged for a closer look

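Member probes, member genes and called pathway genes, 26 in all, were checked for 1 array far from the others. The member genes are means of the same probes, so these checks overlap and are not independent. Of the 26, 1 was past the 95% critical value of Dixon's test for 4 arrays, where chance alone gives about 1 in 20. It was the IGF1R clone IMAGp998F11654, in which array 3 (-0.24) lay apart from the other arrays (0.066 to 0.13), with a gap of 0.837 of the whole range.

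The IGF1R clone IMAGp998A0269 differed between the dye orientations, with an alternating component of 0.21 (adjusted p = 0.0451 in limma, positive on arrays 1 and 3 and negative on arrays 2 and 4). No other member probe passed that test.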

How the results depend on the processing

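Every array holds both cultures, so its log ratio already pairs them. The arrays form 1 group, and no separate paired analysis was run. The count of member probes called in the alternating component (1 as reported) was 0 without the dye term or without moderation and 5 at a threshold of 0.1, and lay between 0 and 2 with 1 array left out. Member genes called (0 in both components) became 1 in the alternating component when the probe with the smallest p stood for each gene, which was IGF1R at 0.21 (adjusted p = 0.0278), opposite in sign to its mean of -0.019. With 1 array left out they lay between 0 and 1 in each component. In the shared component this was IGFBP2 without array 3 (-0.18, adjusted p = 0.0458). In the alternating one it was IGFBP6 without array 3 (-0.18, adjusted p = 0.0416) and IGF1 without array 1. Pathway genes called (2 shared, 0 alternating) became 0 in the shared component without the dye term or moderation, 4 at a threshold of 0.1, 4 in each component with the probe of smallest p, and with 1 array left out 0 to 6 shared and 0 to 5 alternating. The 5 negative binding protein genes at an unadjusted p under 0.05 became 0 without the dye term, 1 without moderation, 2 with array weights, and 0 to 3 with 1 array left out. These last alternatives were chosen after seeing the data. With quantile normalization, and with array weights, the shared component held 3 pathway calls. Median centring, scaling by the median absolute deviation and robust moderation left the counts of calls as they were, and under that scaling the 5 binding protein genes became 4. Of the other 676 comparisons of single probes and genes with the reported value, 654 stayed the same. Most of those were results that were not called and stayed uncalled. In 13 comparisons a call was lost, in 8 one was gained and in 1 the sign was reversed. All lost calls were those of GRB14, HTRA1 and the IGF1R clone IMAGp998A0269, the single results that were called as reported. The cause of these changes was not tested, except that leaving out an array leaves 1 residual degree of freedom. For these settings the share of all probes or genes called is not given, so the changed counts have no background beside them. Signal over background is not in the table, so its limits could not be assessed.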
